A study of Mus musculus with 12 samples.

Results

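Expression at postnatal day 28 (P28) was compared with that at P14 for 15464 genes, those with a normalised read count of at least 10 in at least 3 of the 12 libraries, out of 24421 entries in the table. RNA came from green fluorescent protein (GFP)-positive cells sorted from the cerebellum of Aldh1l1-GFP mice, collected at P1, P7, P14 and P28 with 3 libraries per age. P14 and P28 therefore share genotype, tissue and sort, and differ by age alone as far as the labels go. The methods give a C57/BL6J background with both sexes in use, and the sex and number of animals behind a library are not given in the labels. GFP follows the promoter of Aldh1l1, which encodes a folate enzyme of astrocytes, so any other cell type with activity of that promoter, or carried through the gate, contributes to the same tube. Since the labels do not say that the libraries come from separate animals, p-values measure only the spread between these samples, which may be technical. In such bulk RNA, fewer cells of a type and less RNA per cell of that type cannot be told apart.

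The mouse cerebellum contains Bergmann glia, whose processes span the molecular layer and wrap the synapses of Purkinje cells, velate astrocytes among the granule neurons, and fibrous astrocytes of the white matter. Mature astrocytes take up glutamate and potassium from the space around synapses, move water at the end-feet on blood vessels, and supply neurons with lactate, lipids and amino acids. During the weeks studied, the last granule neuron precursors leave the cell cycle, parallel fibre synapses are formed and pruned, and oligodendrocytes myelinate the tracts.

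The libraries held 9470510 to 9856910 reads on genes at P14 and 7965152 to 10269334 at P28. When all were rarefied to 7965152 reads, 16076 to 16532 genes had a read at P14 and 14167 to 14749 at P28, a mean difference of -1754 genes (exact permutation test, two-sided, p = 0.1, the smallest value that 3 libraries against 3 can give). Reads were also held by fewer genes at P28, where 487 to 536 genes made up 50% of a library against 688 to 725 at P14. The P28 libraries were not alike in sex-linked transcripts. Xist RNA was counted at 18254 to 22155 in the P14 libraries and at 25, 63 and 21061 at P28, and the Y-linked Ddx3y at 0 to 1 at P14 and at 1041, 645 and 7 at P28, so only P28 replicate 3 resembled the P14 libraries. Choroid plexus transcripts were low in replicate 3 of both ages, with Ttr, which encodes transthyretin, at 107436, 62320 and 796 at P14 and 102429, 179566 and 17368 at P28.

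The labelled cell type was checked against 10 astrocyte markers, all of which were abundant at both ages. Aldh1l1 itself was counted at 1834, 1978 and 1824 at P14 and 2451, 3338 and 2974 at P28. Its libraries did not overlap between the ages, although the difference did not pass the test (log2 fold change 0.63 ± 0.25 SE, adjusted p = 0.105). The test throughout was limma on log2(count + 1), adjusted over all genes tested. On this scale fold changes of low genes can be understated or overstated. Cdc45 was at -5.05 here and -5.74 in the count model edgeR, and Nrarp at -4.25 and -3.27. Gfap, an intermediate filament gene of astrocytes, was at 1538, 1447 and 1078 at P14 and 2740, 2056 and 3400 at P28. It rose with log2 fold change 1.00 ± 0.30 SE, adjusted p = 0.0405, or 0.0549 with only the 6 libraries, a call lost without any one of P14 replicates 1, 2 and 3 and P28 replicates 1 and 3, at adjusted p of up to 0.148 without P14 replicate 3, and under library totals (0.0879). The summed counts of the 10 markers were 154959 to 191092 at P14 and 358112 to 419126 at P28. Genes of myelinating oligodendrocytes, a cell type outside the label, were also abundant, 23 of them summing to 402490 to 439740 at P14.

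Of the 15464 genes, 2232 (14.4%) passed an adjusted p of 0.05, 878 (5.68%) with higher and 1354 (8.76%) with lower expression at P28, and the median change over all genes tested was -0.12 on the log2 scale. The libraries of the ages did not overlap for 26.1% of all genes, and for 2138 of the 2232 called genes. Without P28 replicate 3, the P28 library with Xist, 862 genes were higher and 1471 lower, and 1693 of the 2232 calls were shared. In that fit every P14 library held Xist and every P28 library held Ddx3y, so sex and age cannot be told apart in it. Among the 4307 well-expressed genes, with a mean count of 500 or more over the 6 libraries, the balance was the opposite: 21.6% were called, 675 (15.7%) higher and 255 (5.92%) lower, and the median was 0.18. The share of risers climbed with the level. At mean counts under 50, 0.448% of genes rose and 14.2% fell, at 500 to 2000 these shares were 10.5% and 6.05%, and at 10000 or more 49.0% and 4.9%. The higher calls numbered 576 without P14 replicate 1, 449 without P14 replicate 3 and 393 with only the 6 libraries of these ages in the fit, and the lower calls 845, 793 and 373. Scaling by library totals alone shifted all genes by -0.23 on the log2 scale and gave 456 higher and 1936 lower calls (19.1% of the calls higher, against 39.3%), and among well-expressed genes it turned the balance, with 348 higher and 501 lower. Requiring 10 reads in each of the 6 libraries gave 874 higher and 654 lower. Directions below are relative to the study's size factors.

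**Figure D1:**
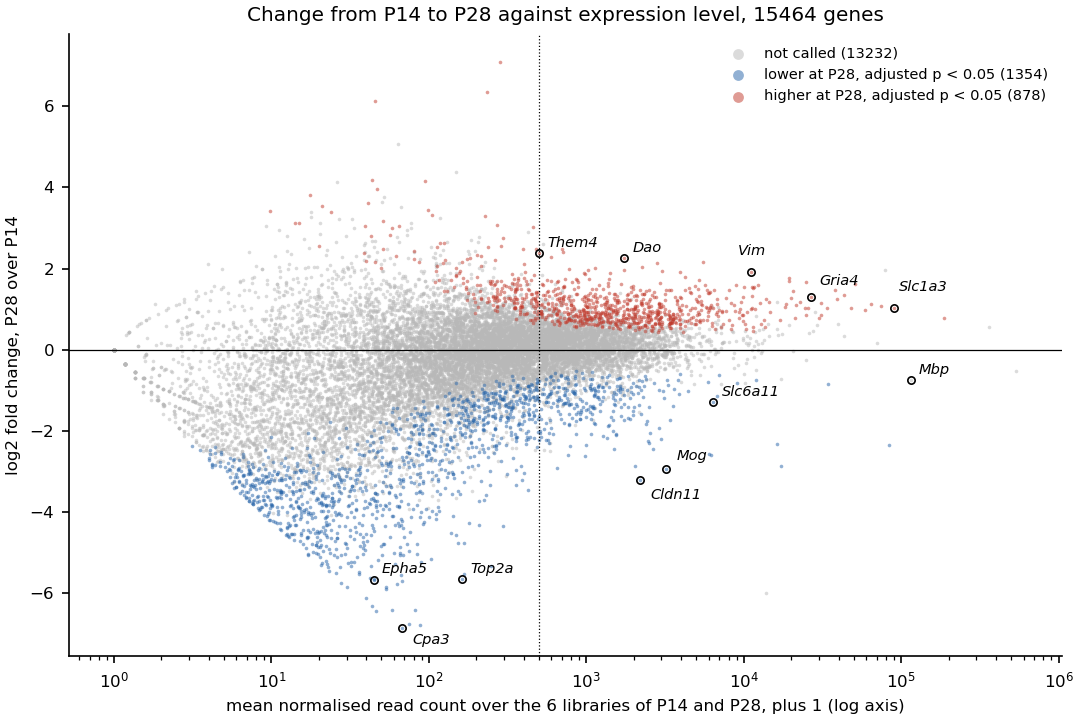
Each point is one of the 15464 genes, with its mean normalised read count over the 6 libraries plus 1 on a log axis and its log2 fold change from P14 to P28 on the vertical axis. Genes with higher expression at P28 (878, red) cluster at high levels and genes with lower expression (1354, blue) at low levels, and the dotted line marks a mean count of 500.

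Most astrocyte markers rose. Of the 10, 8 were called higher and 0 lower, the P28 libraries lay above all P14 libraries for 10 of 10, and the median log2 fold change was 1.08, with a range from 0.5 to 1.6. Slc1a3, which encodes the glutamate transporter GLAST, was counted at 56504, 72149 and 50270 at P14 and 107586, 124670 and 132264 at P28 (log2 fold change 1.04 ± 0.23 SE, adjusted p = 0.0103; adjusted p = 0.0525 without P14 replicate 3). Aqp4, the water channel of astrocyte end-feet, was at 27674, 25745 and 20033 at P14 and 62819, 60996 and 61647 at P28, with the P28 libraries close together and far above P14 (log2 fold change 1.35 ± 0.23 SE, adjusted p = 0.00248). The largest rise among the 10 was that of S100b, a calcium-binding protein, from 3999, 4819 and 4370 at P14 to 13128, 11547 and 15333 at P28 (log2 fold change 1.60 ± 0.24 SE, adjusted p = 0.0012), followed by Aldoc, the aldolase of astrocytes and Purkinje cells (log2 fold change 1.47 ± 0.25 SE, adjusted p = 0.0023), and the glial transcription factor Sox9 (log2 fold change 1.42 ± 0.23 SE, adjusted p = 0.00157). Glul, glutamine synthetase, was at 12407, 9779 and 10594 at P14 and 14227, 15179 and 16970 at P28 and did not pass the test (log2 fold change 0.50 ± 0.19 SE, adjusted p = 0.0921).

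**Figure D2:**
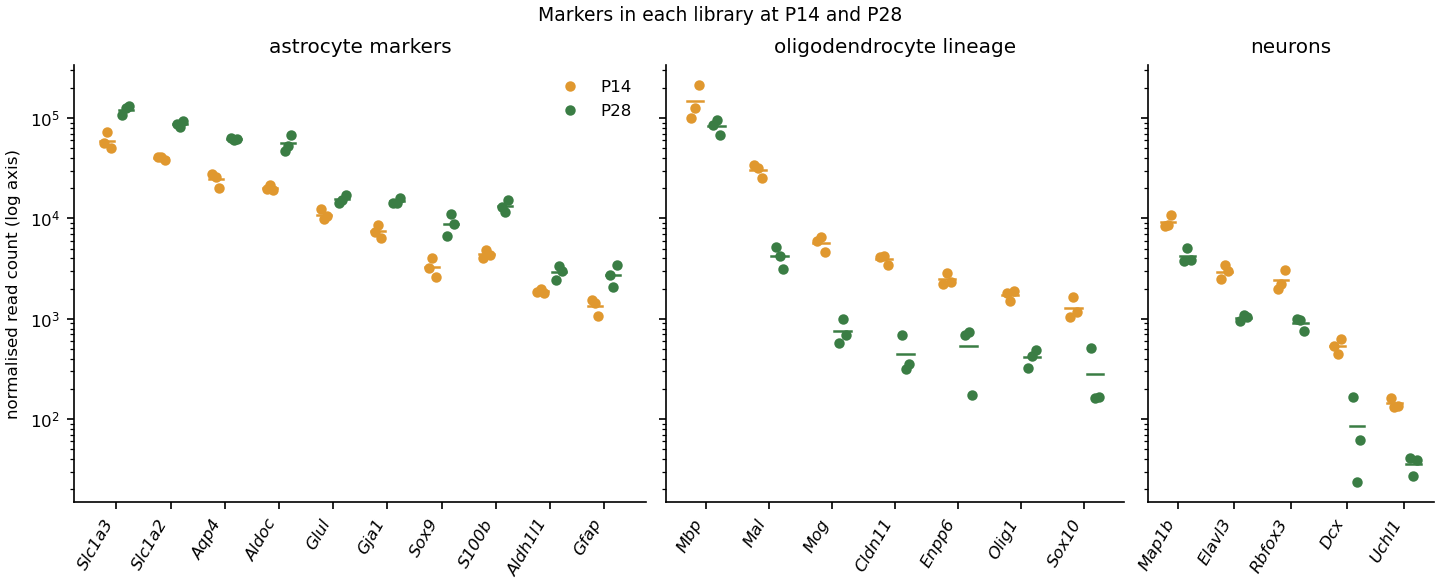
Normalised read counts on a log axis in each of the 3 libraries at P14 (orange) and P28 (green), with short lines at the means, for the 10 astrocyte markers, 7 genes of the oligodendrocyte lineage and 5 neuronal genes. All astrocyte markers were higher and all genes of the other panels were lower at P28 in every library, with Mbp, Aldh1l1 and Glul not passing the test. The neuronal genes shown were all called lower. Of the 21 general neuronal genes tested, 5 had a positive change and 1, Map2, was called higher.

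Genes for potassium and water handling rose almost as a group, with 11 of 13 called higher and 0 lower, and a median of 1.05. The calls fell to 6 without P14 replicate 1 and to 6 without P14 replicate 3, and to 7 under scaling by library totals. Fxyd1, which encodes a regulator of the sodium-potassium pump, was at 2742, 1787 and 1647 at P14 and 8457, 8898 and 9577 at P28, each P28 library standing at more than any P14 library by a wide margin (log2 fold change 2.16 ± 0.34 SE, adjusted p = 0.0016). Mlc1, a membrane protein of end-feet, rose as well (log2 fold change 1.47 ± 0.31 SE, adjusted p = 0.00761). Kcnj10, the inward rectifier potassium channel of astrocytes, looked at after its values were known, rose less, from 10667, 11391 and 8258 at P14 to 14234, 16798 and 15519 at P28 (log2 fold change 0.63 ± 0.18 SE, adjusted p = 0.0318, or 0.0687 with only the 6 libraries), and the call was lost without P14 replicate 1, P14 replicate 3, P28 replicate 2 or P28 replicate 3 (adjusted p of up to 0.133) and under library totals (0.136).

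Of 14 genes for glutamate uptake and recycling tested, 6 rose and 1 fell, with a median of 0.25 that was 0.01 under library totals. The main transporters rose. Slc1a2, which encodes GLT-1, was at 40733, 41172 and 38590 at P14 and 86809, 82296 and 93632 at P28 (log2 fold change 1.12 ± 0.21 SE, adjusted p = 0.00386). Slc38a1, a glutamine transporter, was at 5034, 6639 and 6062 at P14 and 16311, 16218 and 18152 at P28 and rose by more (log2 fold change 1.52 ± 0.21 SE, adjusted p = 0.000569).

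Genes for handling GABA changed in both directions. Slc6a11, which encodes the GABA transporter GAT-3, was at 12827, 6223 and 8228 at P14 and 2347, 4041 and 4814 at P28, lower in every P28 library (log2 fold change -1.28 ± 0.38 SE, adjusted p = 0.0369, or 0.0772 with only the 6 libraries), though this call was lost without P14 replicate 1, P14 replicate 3 or P28 replicate 1, with an adjusted p of up to 0.148. Abat, the enzyme that breaks down GABA, rose (log2 fold change 0.88 ± 0.19 SE, adjusted p = 0.00923). Of the 12 genes for GABA and glycine transport and breakdown, 2 rose and 1 fell, with a median of 0.08 that became -0.16 under library totals, and the rises numbered 1 without P14 replicate 3. Of 16 genes for serine, glycine and one-carbon metabolism 4 rose and 2 fell, with 1 rise and 1 fall without P14 replicate 1 and 2 and 1 without P14 replicate 3. Gldc, which cleaves glycine, was at 378, 540 and 315 at P14 and 1382, 1059 and 1577 at P28 (log2 fold change 1.72 ± 0.29 SE, adjusted p = 0.00224).

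Bergmann glia genes mostly rose. Of 17 tested, 11 were called higher and 1 lower, with a median of 1.05, and 7 were called higher without P14 replicate 3. Gria4, a subunit of the AMPA receptors by which Bergmann glia sense glutamate, was at 13607, 18464 and 14386 at P14 and 41444, 31901 and 40824 at P28 (log2 fold change 1.30 ± 0.22 SE, adjusted p = 0.00237), and its partner Gria1, looked at after its values were known, at 10916, 13659 and 10902 at P14 and 34958, 33812 and 44628 at P28 (log2 fold change 1.67 ± 0.36 SE, adjusted p = 0.00768). Hopx, a homeodomain protein, was at 1226, 1413 and 1052 at P14 and 4088, 3902 and 6570 at P28 (log2 fold change 1.95 ± 0.35 SE, adjusted p = 0.00338), and Lgi4, a secreted glial protein, at 387, 622 and 369 at P14 and 1429, 2020 and 2018 at P28 (log2 fold change 2.01 ± 0.45 SE, adjusted p = 0.01). Dao, D-amino acid oxidase, which breaks down D-serine, was counted at 591, 745 and 479 at P14 and 3206, 2992 and 2375 at P28. It was under 10 in all 6 libraries of P1 and P7, and rose from P14 to P28 with log2 fold change 2.25 ± 0.56 SE, adjusted p = 0.0169, a call lost without P14 replicate 1 or P14 replicate 3 (adjusted p of up to 0.0686). Gdf10, an abundant growth factor gene of Bergmann glia, was at 10078, 14130 and 9217 at P14 and 12229, 12007 and 14328 at P28, with overlapping libraries (log2 fold change 0.23 ± 0.46 SE, adjusted p = 0.783). The member that fell was Cadm1, a cell adhesion molecule shared with neurons (log2 fold change -1.65 ± 0.29 SE, adjusted p = 0.00297).

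Genes named for immature and radial glia did not move together. Of 25 tested, 9 rose and 6 fell, with a median of -0.29, and the falls numbered 1 without P14 replicate 1 and 2 without P14 replicate 2, while the rises numbered 5 without P14 replicate 3. Vim, the intermediate filament vimentin of radial and Bergmann glia, was at 18181, 15829 and 15249 at P1, 7032, 5778 and 6136 at P7 and 4584, 5441 and 3840 at P14, and then at 14173, 16791 and 21494 at P28. The P28 counts were near those of P1 and far above every P7 and P14 library (log2 fold change 1.91 ± 0.17 SE, adjusted p = 5.88e-05). Msi1, an RNA-binding protein of progenitors and glia, was at 327, 498 and 438 at P14 and 1600, 990 and 1427 at P28 (log2 fold change 1.66 ± 0.28 SE, adjusted p = 0.00211), and Id4, an inhibitor of differentiation factors, rose too (log2 fold change 1.33 ± 0.26 SE, adjusted p = 0.00457). Ptprz1, a receptor phosphatase of radial glia and astrocytes, was at 22757, 26546 and 20526 at P14 and 53110, 52117 and 60706 at P28 (log2 fold change 1.25 ± 0.24 SE, adjusted p = 0.0047). Sox11, a transcription factor of newborn neurons and precursors, went the other way, from 416, 331 and 296 at P14 to 99.4, 204 and 131 at P28 (log2 fold change -1.31 ± 0.33 SE, adjusted p = 0.0187, or 0.115 with only the 6 libraries), a call lost without P14 replicate 1 or P28 replicate 1 (adjusted p of up to 0.0728). Vim also rose against Gfap, the other filament gene, the ratio being 2.98, 3.76 and 3.56 at P14 and 5.17, 8.17 and 6.32 at P28 (exact permutation p = 0.1).

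**Figure D3:**
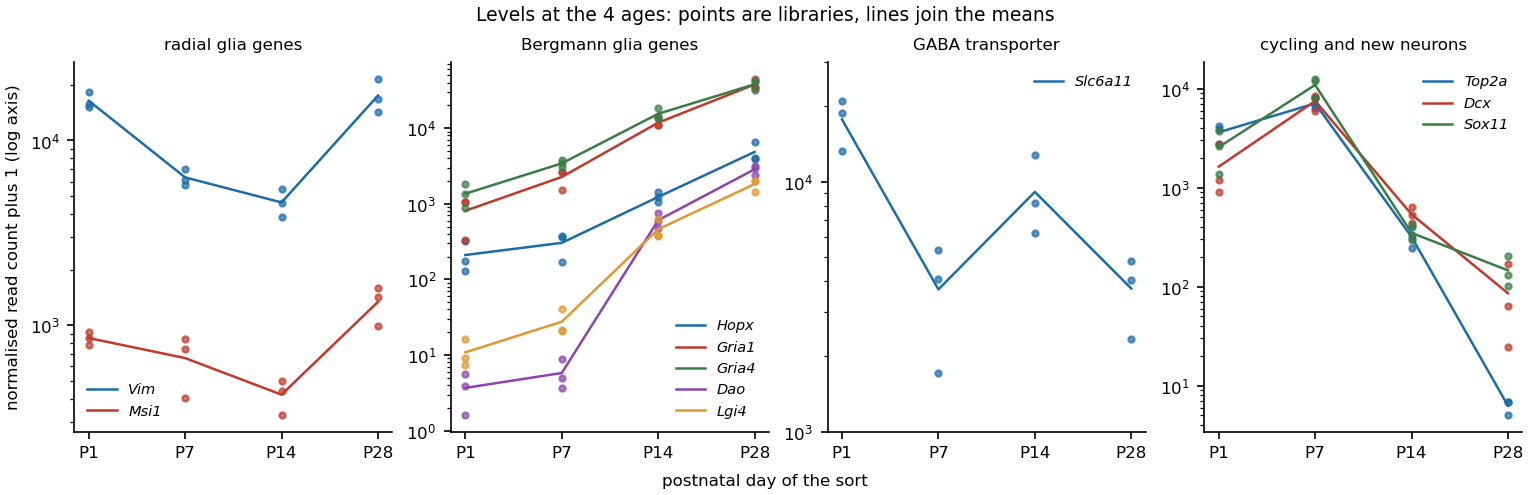
Normalised read counts plus 1 on log axes at P1, P7, P14 and P28, with a point per library and lines through the means, for genes of radial glia, of Bergmann glia, for the GABA transporter Slc6a11 and of cycling cells and new neurons. Vim was lowest at P14 and higher again at P28, Dao and Lgi4 were low at P1 and P7 and higher at P14 and again at P28, Slc6a11 was lower at P28 than at P14, and Top2a was under 10 at P28.

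Because the astrocyte markers rose together, expression was also measured against them, as log2 count minus the mean log2 level of the 10 markers in the same library, a scale chosen after the data were seen. That mean was 13.159, 13.248 and 12.975 at P14 and 14.125, 14.215 and 14.379 at P28. On this scale 52.0% of genes were called, 33 (0.213%) higher and 8016 lower, and among the well-expressed genes 13 higher and 2702 lower. Genes that rose beyond the markers included Them4, a mitochondrial thioesterase (1.28 ± 0.45 SE, adjusted p = 0.0254), Fxyd1 (1.05 ± 0.37 SE, adjusted p = 0.0251), Hsd11b1, which activates glucocorticoids (0.92 ± 0.34 SE, adjusted p = 0.032), Cd44, a hyaluronan receptor (0.85 ± 0.30 SE, adjusted p = 0.0239), Hopx (0.83 ± 0.30 SE, adjusted p = 0.0277), Vim (0.80 ± 0.21 SE, adjusted p = 0.00588) and Gstm1, a glutathione transferase (0.58 ± 0.20 SE, adjusted p = 0.0238). Among the lists above, those for potassium and water handling and for Bergmann glia had medians of -0.07 and -0.06 on this scale. The markers set its level by construction, and each list shares members with them, Aqp4 in the first and Slc1a3 in the second. These medians therefore restate the rises given above. Slc6a11 was lower relative to the markers (-2.39 ± 0.29 SE, adjusted p = 2.6e-05).

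Receptors by which astrocytes sense transmitters changed in both directions (median 0.73), with 7 of 24 higher and 3 lower, and 4 higher without P14 replicate 3. Gabra2, a subunit of GABA-A receptors, was counted at 858, 1177 and 1056 at P14 and 4821, 5196 and 3657 at P28 (log2 fold change 2.14 ± 0.33 SE, adjusted p = 0.00127). Ednrb, the endothelin receptor of astrocytes, was at 14126, 16204 and 10758 at P14 and 30141, 28161 and 28691 at P28 (log2 fold change 1.10 ± 0.24 SE, adjusted p = 0.00862). Grm5, the metabotropic glutamate receptor of immature astrocytes and of neurons, was at 284, 297 and 416 at P14 and 54.1, 127 and 146 at P28, after 1308, 1464 and 915 at P1 (log2 fold change -1.70 ± 0.35 SE, adjusted p = 0.00699, or 0.101 with only the 6 libraries). Chrm3, a muscarinic receptor, was counted at 32.8, 19 and 73.8 at P14 and 0, 1.18 and 0 at P28, with 117 reads at P14 and 1 at P28 (ratio of 94.6, 95% exact interval 16.6 to 3770, which like all such intervals and floors here covers counting error only).

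Metabolic genes rose in small numbers under the study's size factors. Beside them, 5.68% of all genes tested rose, 15.7% of the well-expressed genes and 33.0% of those at mean counts of 2000 to 10000. Of the well-expressed members, 6 of 12 rose for glycogen metabolism, 5 of 24 for glycolysis and lactate and 4 of 16 for fatty acids. The same counts were 9 of 26 for lysosomal genes and 5 of 16 for glutathione and oxidative defence. For glycogen metabolism 6 of 23 rose and 0 fell (median 0.55), with Pygb, a glycogen phosphorylase, at 3699, 3040 and 2999 at P14 and 5819, 6586 and 7399 at P28 (log2 fold change 1.02 ± 0.19 SE, adjusted p = 0.00378). For glycolysis and lactate 5 of 31 rose and 0 fell (median 0.36), among them Ldhb, a lactate dehydrogenase subunit (log2 fold change 1.12 ± 0.16 SE, adjusted p = 0.000943). Fatty acid activation and beta-oxidation had 6 of 36 higher and 1 lower, led by Acads, an acyl-CoA dehydrogenase (log2 fold change 1.45 ± 0.36 SE, adjusted p = 0.0168, or 0.0792 with only the 6 libraries), with Acsbg1, an acyl-CoA synthetase of glia, at 4890, 5152 and 3667 at P14 and 10637, 10370 and 11707 at P28 (log2 fold change 1.27 ± 0.28 SE, adjusted p = 0.00905), and the rises numbered 3 without P14 replicate 3. Lysosomal genes had 10 of 45 higher and 2 lower, with the abundant Psap, prosaposin, at 6311, 6288 and 5386 at P14 and 11874, 11318 and 11648 at P28 (log2 fold change 0.96 ± 0.15 SE, adjusted p = 0.00152), but 6, 5 and 6 higher without P14 replicate 1, P14 replicate 3 and P28 replicate 3, falls of 0 to 1 without any P14 library or P28 replicate 1, and a median of 0.23 that was -0.01 under library totals, where the calls turned to 3 higher and 5 lower. Glutathione and oxidative defence had 5 of 35 higher and 2 lower, the rises including Gstm1, at 8053, 10535 and 8687 at P14 and 22888, 28700 and 38110 at P28 (log2 fold change 1.70 ± 0.23 SE, adjusted p = 0.000631), and Prdx6, a peroxiredoxin (log2 fold change 1.37 ± 0.25 SE, adjusted p = 0.00333). The rises numbered 3, 3 and 8 without P14 replicate 1, P14 replicate 3 and P28 replicate 1, and the falls 0 to 1 without any library but P28 replicate 3, and under library totals 3 rose and 3 fell.

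Few genes of the respiratory chain and the ribosome were called. Of 76 nuclear genes for oxidative phosphorylation, 5 (Ndufs8, log2 fold change 1.46 ± 0.24 SE, adjusted p = 0.00181, and Ndufa9, log2 fold change 1.16 ± 0.27 SE, adjusted p = 0.0124, or 0.0672 with only the 6 libraries, with the largest rises) were higher and 0 lower, close to the 5.68% of all genes, and 2 and 3 were higher without P14 replicate 1 and 2. Of 77 genes for cytosolic ribosomal proteins 1 rose and 0 fell, with a median of -0.05 (0, 9 and -0.29 under library totals), and of 77 for mitochondrial ones 2 rose and 0 fell, with a median of 0.04 (1, 2 and -0.19 under library totals). Cholesterol synthesis, which supplies growing membranes, had a median of -0.46, with 1 of 25 higher and 2 lower, 0 to 1 lower without any P14 library, 4 without P28 replicate 1 and 7 under library totals. Among lipoprotein and efflux genes 6 of 17 rose and 2 fell, with 3 and 1 higher without P14 replicate 2 and 3 and 1 lower without P14 replicate 1, P14 replicate 2 or P28 replicate 2. Under library totals this list turned, with 3 higher, 4 lower and a median of -0.12 against 0.12. Clu, clusterin, was at 4856, 4852 and 3320 at P14 and 12838, 10754 and 12067 at P28 (log2 fold change 1.47 ± 0.27 SE, adjusted p = 0.00378), while Abcg1, a sterol exporter, was at 774, 757 and 531 at P14 and 121, 153 and 131 at P28, lower in each P28 library by a wide margin (log2 fold change -2.32 ± 0.26 SE, adjusted p = 0.000242).

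Signalling pathways were mixed, beside 5.68% higher and 8.76% lower among all genes tested. In the sonic hedgehog pathway, by which Purkinje cells instruct Bergmann glia, 4 of 15 genes rose and 0 fell, with 2 and 1 higher without P14 replicate 2 and 3. Its receptor Ptch1, itself a target gene of the pathway, was at 4203, 4741 and 3270 at P14 and 8806, 9939 and 9880 at P28 (log2 fold change 1.24 ± 0.20 SE, adjusted p = 0.00148). In the Wnt pathway 6 of 50 rose and 7 fell, the rises including the receptor genes Fzd3 (log2 fold change 0.96 ± 0.18 SE, adjusted p = 0.00362) and Lgr4 (log2 fold change 1.02 ± 0.19 SE, adjusted p = 0.00422). The falls included genes for secreted inhibitors, all at low levels. Sfrp5 was at 45.5, 22.2 and 18.5 at P14 and 0, 4.72 and 0 at P28 (adjusted p = 0.00996, or 0.0665 with only the 6 libraries). Frzb was at 44.5, 66.6 and 27.1 at P14 and 0, 2.36 and 5.41 at P28 (adjusted p = 0.00595, or 0.0654 with only the 6 libraries). Notum was at 24.4, 13.8 and 7.6 at P14 and 0, 0 and 0 at P28, at least 3.82-fold lower against a floor of 3 reads in a library. The falls numbered 4 without P14 replicate 1. None of the Wnt genes that fell was well-expressed, and among genes of any type with mean counts under 50, 14.2% fell. In the Notch pathway 2 of 26 rose and 4 fell, with 0 and 1 higher without P14 replicate 1 and 3, and 2 lower without P14 replicate 1, P14 replicate 2 or P28 replicate 3, and Nrarp, a target and inhibitor of Notch, was at 220, 143 and 138 at P14 and 16.1, 0 and 36.5 at P28 (log2 fold change -4.25 ± 0.94 SE, adjusted p = 0.00913, or 0.129 with only the 6 libraries).

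Within the BMP and TGF-beta pathway 4 of 46 rose and 4 fell, with 2 rises without P14 replicate 1 or 3 and 1 to 2 falls without any one P14 library, and 2 rises and 7 falls under library totals. Smad9, a transducer of BMP signals, was at 763, 630 and 862 at P14 and 1885, 1989 and 1604 at P28 (log2 fold change 1.28 ± 0.21 SE, adjusted p = 0.00178), whereas Smad7, the inhibitory member, was at 671, 714 and 576 at P14 and 213, 202 and 224 at P28 (log2 fold change -1.61 ± 0.24 SE, adjusted p = 0.00121). For the FGF pathway 6 of 29 rose and 3 fell, with 2 rises without P14 replicate 1 or 3 and 1 fall without P14 replicate 3, and a median of 0.1 (3, 3 and -0.14 under library totals). Of 23 circadian clock genes 5 rose and 1 fell, the rises dropping to 1 to 3 without any one of P14 replicates 1, 2 and 3 and P28 replicates 2 and 3, and to 2 beside 2 falls under library totals. Rorb, a nuclear receptor, rose (log2 fold change 1.48 ± 0.30 SE, adjusted p = 0.00595), and Ciart, a repressor that follows the daily cycle, fell from 131, 83.6 and 143 at P14 to 2.92, 21.2 and 21.6 at P28 (log2 fold change -3.23 ± 0.70 SE, adjusted p = 0.00878, or 0.104 with only the 6 libraries); the hour of the sort was not given in the sources used here. Immediate early genes, which respond within minutes to stimulation or to dissociation of tissue, had 10 of 26 lower and 0 higher, with a median of -0.92 and 6 and 5 lower without P14 replicate 1 and 3. Junb was at 419, 481 and 545 at P14 and 142, 118 and 201 at P28 (log2 fold change -1.67 ± 0.35 SE, adjusted p = 0.00734) and Klf4 at 1764, 1352 and 1570 at P14 and 387, 627 and 618 at P28 (log2 fold change -1.54 ± 0.25 SE, adjusted p = 0.00177). Of 34 genes for heat shock and unfolded proteins 6 rose and 1 fell (3 and 2 rises without P14 replicate 1 and 3), with the chaperone gene Hspa1a at 274, 225 and 459 at P14 and 753, 1069 and 1190 at P28 (log2 fold change 1.69 ± 0.37 SE, adjusted p = 0.0094).

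**Figure D4:**
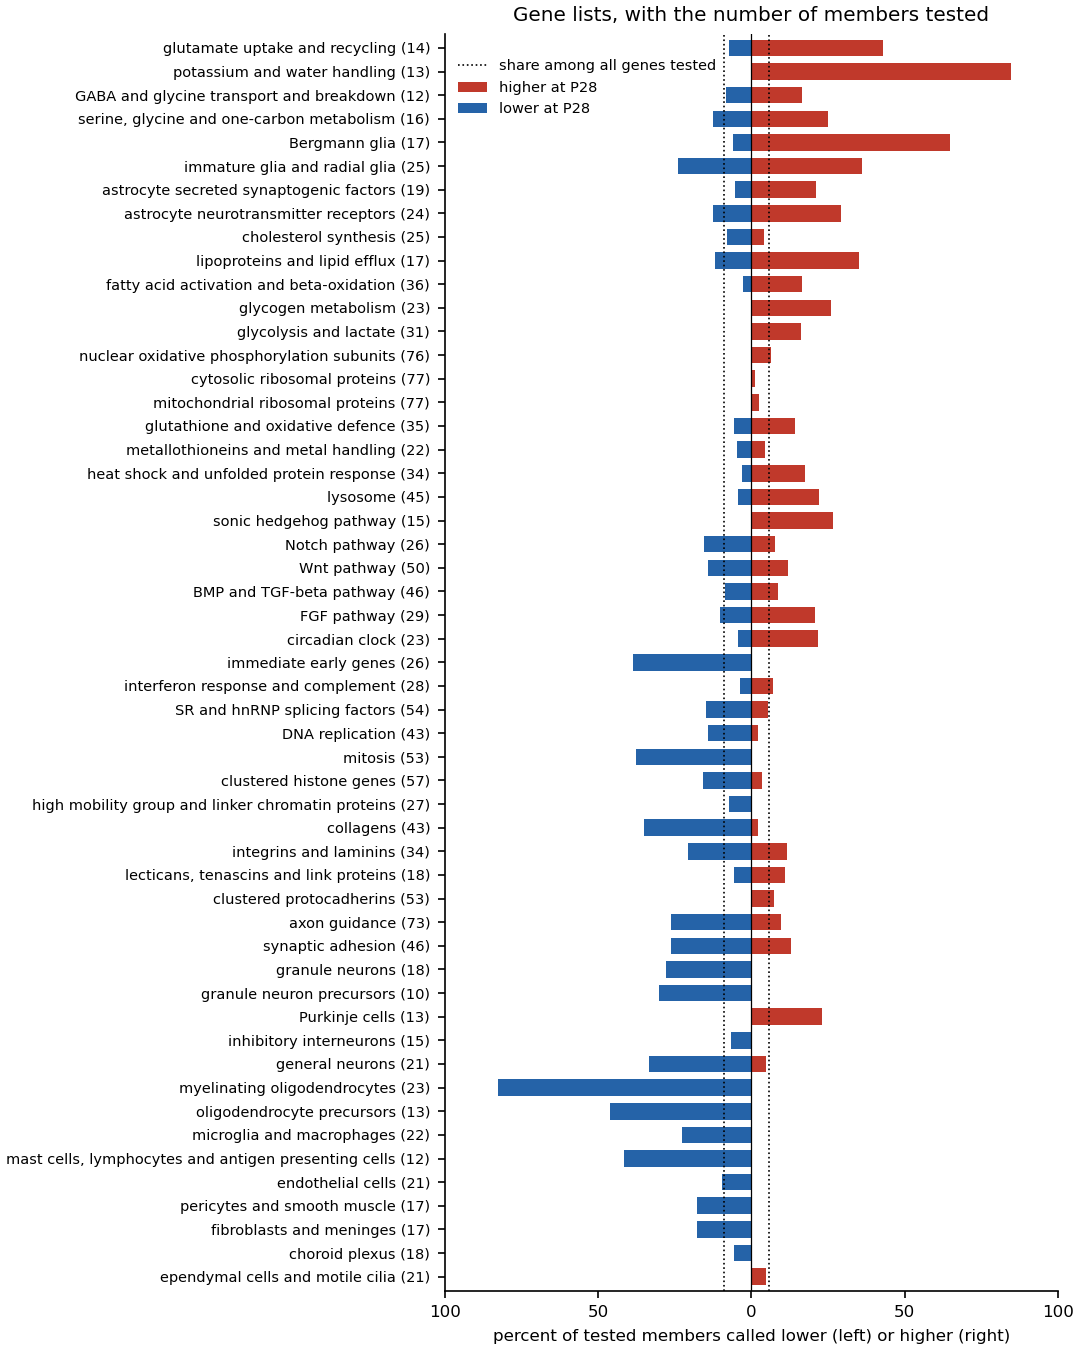
For each gene list with 10 or more members tested (number in brackets), the bar to the right gives the percent of members called higher at P28 and the bar to the left the percent called lower. Dotted lines mark the shares among all genes tested (5.68% and 8.76%), and the lists for potassium and water handling and for myelinating oligodendrocytes stand out in opposite directions.

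Myelin genes fell, with a larger share of members called lower than in any other list of 10 or more. Of 23 genes of myelinating oligodendrocytes, 19 were lower and 0 higher, with a median of -2.33, and 15 to 20 were lower with each library of these ages left out in turn. Their summed count was 402490, 436872 and 439740 at P14, or 3.97% to 4.28% of a library, and 163709, 174293 and 117063 at P28, or 0.927% to 1.44%. Mog, on the outer surface of myelin, was at 5923, 6471 and 4602 at P14 and 571, 995 and 696 at P28 (log2 fold change -2.93 ± 0.42 SE, adjusted p = 0.000788), Mal, a myelin membrane protein, at 33859, 31687 and 25227 at P14 and 5166, 4260 and 3132 at P28 (log2 fold change -2.87 ± 0.47 SE, adjusted p = 0.00178), and Cldn11, which seals the layers of myelin, at 4113, 4263 and 3460 at P14 and 682, 313 and 358 at P28, the largest fall among the well-expressed genes that passed the test without overlap (log2 fold change -3.21 ± 0.45 SE, adjusted p = 0.000734).

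Mbp, whose mRNA is carried out into the myelin processes, was counted at 100186, 125612 and 212767 at P14 and 85741, 95728 and 67725 at P28, below every P14 library at P28 but without passing the test (log2 fold change -0.76 ± 0.33 SE, adjusted p = 0.142). Precursor genes fell too. Of 13 genes of oligodendrocyte precursors 6 were lower and 0 higher, with a median of -1.88, or -1.11 in edgeR and -1.09 in DESeq2. Their summed count was 13267, 12535 and 13009 at P14 and 9635, 8029 and 8817 at P28. The lineage factors Sox10 and Olig1 were at 1053, 1635 and 1180 at P14 and 514, 164 and 168 at P28 (log2 fold change -2.38 ± 0.41 SE, adjusted p = 0.00243) and at 1822, 1502 and 1874 at P14 and 327, 429 and 487 at P28 (log2 fold change -2.07 ± 0.26 SE, adjusted p = 0.000409), and Pdgfra, a growth factor receptor of precursors and of fibroblasts, at 805, 730 and 624 at P14 and 475, 231 and 352 at P28 (log2 fold change -1.08 ± 0.25 SE, adjusted p = 0.0119, or 0.097 with only the 6 libraries). Enpp6, a marker of newly formed oligodendrocytes, was at 2230, 2849 and 2328 at P14 and 688, 747 and 173 at P28, lowest in P28 replicate 3 (log2 fold change -2.46 ± 0.51 SE, adjusted p = 0.00693).

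Further large falls among well-expressed genes lay outside these lists. Gsn, the actin-severing protein gelsolin, was at 4415, 5791 and 3228 at P14 and 1032, 882 and 561 at P28 (log2 fold change -2.44 ± 0.35 SE, adjusted p = 0.000762), and Dock10, an exchange factor for small GTPases, at 2952, 4024 and 3500 at P14 and 805, 813 and 164 at P28 (log2 fold change -2.86 ± 0.44 SE, adjusted p = 0.00121). Sema5a, a guidance molecule, was at 1554, 1659 and 1748 at P14 and 513, 288 and 133 at P28 (log2 fold change -2.61 ± 0.35 SE, adjusted p = 0.000554). The summed myelin count fell beside them, and its part in these differences was not tested.

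Most general neuronal genes were lower at P28, less strongly than those of myelin. Of 21 tested, 16 had a negative and 5 a positive change, and 7 were called lower and 1 higher, with a median of -0.72. The 1 called higher was Map2 (log2 fold change 0.63 ± 0.17 SE, adjusted p = 0.0219), a call lost without P14 replicate 1 or P28 replicate 3. The summed count of the 21 genes was 42882, 47699 and 67995 at P14 and 29472, 37076 and 35358 at P28. Map1b, a microtubule protein of growing axons, was at 8317, 8563 and 10778 at P14 and 3748, 5062 and 3842 at P28 (log2 fold change -1.13 ± 0.22 SE, adjusted p = 0.00435), and Uchl1, a neuronal hydrolase, at 162, 132 and 136 at P14 and 40.9, 27.1 and 39.2 at P28 (log2 fold change -1.99 ± 0.39 SE, adjusted p = 0.00471, or 0.109 with only the 6 libraries). Dcx, doublecortin of migrating neurons, was at 532, 441 and 636 at P14 and 168, 23.6 and 62.2 at P28, after 8070, 5986 and 8423 at P7 (log2 fold change -3.05 ± 0.53 SE, adjusted p = 0.00265, or 0.051 with only the 6 libraries). Of 18 granule neuron genes 5 fell and 0 rose (3 and 2 without P14 replicate 2 and 3), and of 10 genes of their precursors 3 fell, among them Barhl1, a homeodomain factor of the rhombic lip lineage, at 77.3, 60.3 and 27.1 at P14 and 0, 5.9 and 0 at P28 (log2 fold change -4.75 ± 0.79 SE, adjusted p = 0.00206). Atoh1, which defines the precursors, had no read at either age. Splicing factors, a list that includes neuronal RNA-binding proteins, had 8 of 54 lower and 3 higher (5 and 4 falls, and 1 rise each, without P14 replicate 1 and 3). Rbfox3 was at 1998, 2217 and 3068 at P14 and 991, 981 and 748 at P28 (log2 fold change -1.41 ± 0.26 SE, adjusted p = 0.00393) and Elavl3 at 2468, 3421 and 2985 at P14 and 960, 1085 and 1032 at P28 (log2 fold change -1.52 ± 0.25 SE, adjusted p = 0.00212). The 3 rises were of Ptbp1, Ptbp2 and Hnrnpk. Ptbp1, the splicing repressor of non-neuronal cells, was at 2151, 1788 and 1872 at P14 and 3504, 2841 and 3304 at P28 (log2 fold change 0.73 ± 0.15 SE, adjusted p = 0.00554). Its relative Ptbp2 rose by about as much (log2 fold change 0.72 ± 0.19 SE, adjusted p = 0.0218, or 0.101 with only the 6 libraries). Hnrnpk rose less (log2 fold change 0.44 ± 0.13 SE, adjusted p = 0.0419, or 0.118 with only the 6 libraries).

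Of 13 Purkinje cell genes 3 rose and 0 fell, with a median of -0.16 and 1 rise without P14 replicate 3, the rises including Aldoc, which is also an astrocyte marker, and the nuclear receptor gene Rora. Without Aldoc the summed count was 7049, 7302 and 6825 at P14 and 12505, 12074 and 8840 at P28. Of 15 genes of inhibitory interneurons 1 fell and 0 rose, with a median of -0.61, and 0 fell without any one of the P14 libraries or P28 replicates 1 and 2.

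Contact and guidance genes changed in both directions. For axon guidance 19 of 73 were lower and 7 higher, with a median of -0.84, and the rises numbered 4, 2 and 4 without P14 replicate 1, P14 replicate 3 and P28 replicate 1. The netrin receptor Dcc was at 211, 173 and 106 at P14 and 20.5, 2.36 and 9.47 at P28 (log2 fold change -4.12 ± 0.63 SE, adjusted p = 0.00121, or 0.0509 with only the 6 libraries), and the ephrin receptor Epha5 at 80.5, 46.5 and 131 at P14 and 2.92, 0 and 0 at P28, with 241 reads at P14 and 2 at P28 (ratio of 97.4, interval 26.7 to 809). Its relative Epha4, a receptor also of astrocytes, was at 855, 796 and 469 at P14 and 1872, 2321 and 1935 at P28 (log2 fold change 1.57 ± 0.26 SE, adjusted p = 0.002). Of 19 genes for synaptogenic factors secreted by astrocytes 4 rose and 1 fell, with 0 rises without P14 replicate 3 and 2 without P28 replicate 3, and a median of 0.01 (1 rise, 1 fall and -0.23 under library totals). For synaptic adhesion 12 of 46 were lower and 6 higher (3 and 2 rises without P14 replicate 1 and 3), with a median of -0.47. Lrrtm1, a postsynaptic organiser, was at 136, 70.9 and 83.6 at P14 and 5.85, 2.36 and 0 at P28 (log2 fold change -5.05 ± 0.73 SE, adjusted p = 0.000798). Rising members included Cntn1, a contactin, at 4518, 5332 and 5262 at P14 and 9712, 9506 and 9516 at P28, with P28 libraries within a narrow range (log2 fold change 0.93 ± 0.13 SE, adjusted p = 0.000771), and the latrophilin gene Adgrl3 (log2 fold change 1.31 ± 0.17 SE, adjusted p = 0.000529). Of 53 clustered protocadherins 4 rose and 0 fell, with a median of 0.05 that was -0.19 under library totals, and Pcdhb2 was at 10.6, 21.2 and 8.69 at P14 and 136, 82.6 and 77.1 at P28 (log2 fold change 2.83 ± 0.62 SE, adjusted p = 0.00871, or 0.0888 with only the 6 libraries).

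Most mitosis genes leaned lower at P28, 48 of 53 with a negative change, though 33 were not called and several were near the limit of detection. DNA replication genes leaned less, with 25 of 43 negative and 36 not called. Only 1 mitosis gene and 2 replication genes were well-expressed. Among genes of any type with mean counts under 50, 14.2% fell. Of 53 mitosis genes 20 were lower and 0 higher, with a median of -1.81, or -1.24 in edgeR and -1.22 in DESeq2. The falls numbered 15 to 27 with each library left out in turn, and 7 in a fit of the 6 libraries alone. Top2a, the topoisomerase of dividing cells, was at 6292, 8052 and 6891 at P7, 402, 306 and 244 at P14 and 5.85, 5.9 and 4.06 at P28 (log2 fold change -5.65 ± 0.26 SE, adjusted p = 3e-08). Kif23, a kinesin of the midbody, had 179 reads at P14 and 2 at P28 (ratio of 72.3, interval 19.7 to 602), and Ncapg, a condensin subunit, was at 28.6, 22.2 and 20.6 at P14 and 0, 0 and 0 at P28, at least 5.96-fold lower. Anln, which encodes anillin and is also expressed in myelinating oligodendrocytes, was the 1 well-expressed member, at 3085, 3341 and 1974 at P14 and 868, 1277 and 559 at P28 (log2 fold change -1.68 ± 0.31 SE, adjusted p = 0.00369). For DNA replication 6 of 43 were lower and 1 higher (median -0.22), with Mcm5 at 134 reads at P14 and 2 at P28 (ratio of 54.2, interval 14.7 to 452) and Cdc45 at 149 and 2 (60.2, interval 16.4 to 502). Of 57 clustered histone genes 9 fell and 2 rose, 3 falling without P14 replicate 1 and 1 or 4 rising without any one library, with Hist1h2bb at 55.1, 16.9 and 33.7 at P14 and 0, 5.9 and 1.35 at P28 (log2 fold change -3.69 ± 0.71 SE, adjusted p = 0.00453, or 0.0858 with only the 6 libraries). Of 27 high mobility group and linker chromatin genes 2 fell and 0 rose, with 1 lower without P14 replicate 1 and 4 without P28 replicate 1.

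Promoters of mitotic genes often carry the CCAAT box, bound by NF-Y, and the cell cycle homology region TTTGAA, and the mitosis genes that fell together were read for both motifs. Within 250 bases upstream of the start in the RefSeq table (GRCm38.p6), CCAAT or its reverse complement ATTGG was found for 15 of 17 genes that fell and had an entry and for 32 of 45 of the mitosis genes with an entry, against 37.5% of all 27025 genes in that table. TTTGAA or TTCAAA was found for 7 of 17 and 18 of 45, against 18.3%, and both motifs together for 7 of 17 and 15 of 45, against 6.45%. Among the 11566 genes tested here that had an entry, the shares were 39.9% for CCAAT, 12.8% for TTTGAA and 4.77% for both. A gene was counted if any of its listed starts held the motif, and a match of letters is not a bound site. The windows of Top2a (chr11:99024190-99024439, minus strand) and Ncapg (chr5:45669675-45669924, plus strand) are shown because both fell to fewer than 10 counts in every P28 library and hold both motifs, which are in capitals.
Top2a: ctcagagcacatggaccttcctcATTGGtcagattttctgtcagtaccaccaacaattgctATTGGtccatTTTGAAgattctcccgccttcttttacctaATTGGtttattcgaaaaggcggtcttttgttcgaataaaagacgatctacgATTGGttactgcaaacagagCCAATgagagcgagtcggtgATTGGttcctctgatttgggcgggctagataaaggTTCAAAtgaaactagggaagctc
Ncapg: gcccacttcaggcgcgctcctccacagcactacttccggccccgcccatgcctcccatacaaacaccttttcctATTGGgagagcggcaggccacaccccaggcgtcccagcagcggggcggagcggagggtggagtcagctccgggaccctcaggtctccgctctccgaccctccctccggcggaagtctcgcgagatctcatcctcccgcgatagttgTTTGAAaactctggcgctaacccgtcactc
The Top2a window holds 6 matches to CCAAT and 2 to TTTGAA on either strand, and that of Ncapg 1 and 1.

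In the vascular, meningeal and immune cell lists the called genes were all lower, for endothelial genes at about the share of all genes tested. Of 43 collagens 15 fell and 1 rose, with a median of -1.2, and the falls numbered 6, 10 and 8 without P14 replicates 1, 2 and 3. Col3a1, a fibrillar collagen of fibroblasts, was at 1755, 1424 and 1359 at P14 and 538, 363 and 544 at P28 (log2 fold change -1.66 ± 0.37 SE, adjusted p = 0.00987), and Col6a3 at 209, 129 and 86.9 at P14 and 14.6, 1.18 and 1.35 at P28 (log2 fold change -4.96 ± 0.69 SE, adjusted p = 0.000674). Of 34 integrins and laminins 4 rose and 7 fell, the rises dropping to 2 and 1 without P14 replicate 1 and 3 and the falls to 3, 3 and 4 without P14 replicate 1, P14 replicate 2 and P28 replicate 2. Itgb8, an integrin subunit by which astrocytes activate TGF-beta, rose from 1395, 1687 and 987 at P14 to 3376, 2742 and 3079 at P28 (log2 fold change 1.21 ± 0.22 SE, adjusted p = 0.00333). Of 17 pericyte and smooth muscle genes 3 fell, against 1 without P14 replicate 1, 2 or 3 or P28 replicate 2, and 6 without P28 replicate 3. Kcnj8, a potassium channel of pericytes, was among them at 23.3, 131 and 63 at P14 and 1.46, 4.72 and 0 at P28 (log2 fold change -4.61 ± 1.03 SE, adjusted p = 0.00963, or 0.0542 with only the 6 libraries). Fibroblast and meningeal genes fell in 3 of 17 and rose in 0, and endothelial genes in 2 of 21 and in 0, with 0 to 1 lower when any one library was left out. Among all genes tested 8.76% fell. The summed counts of these lists overlapped between the ages. They were 43317 to 54419 at P14 and 40935 to 48883 at P28 for fibroblast and meningeal genes, and 18180 to 20788 and 14243 to 20705 for endothelial genes.

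Microglial genes fell in 5 of 22 and rose in 0, with a median of -1.46. The falls numbered 1 and 2 without P14 replicates 1 and 3, and 8 without P28 replicate 1 or 2, and the summed count was 4402 to 6390 at P14 and 2793 to 4064 at P28. Ccl4, a chemokine of activated microglia, was at 308, 64.5 and 111 at P14 and 7.31, 0 and 6.76 at P28 (log2 fold change -5.03 ± 0.91 SE, adjusted p = 0.00325, or 0.0542 with only the 6 libraries). Genes of mast cells, lymphocytes and antigen presenting cells stood out by their absence at P28, where 13 of the 21 listed genes had no read in any library, against 1 at P14. Of the 12 that could be tested 5 fell. Cpa3, the carboxypeptidase of mast cells, was at 48.7, 176 and 174 at P14 and 0, 0 and 0 at P28, at least 33.2-fold lower, and H2-Aa, an MHC class II gene, at 94.3, 106 and 316 at P14 and 0, 0 and 1.35 at P28, with 480 reads at P14 and 1 at P28 (ratio of 388, interval 69.3 to 15400). Of 18 choroid plexus genes 1 fell and 0 rose, the fall, of Otx2, being lost without any one library but P28 replicate 2, with sums from 10969 to 147223 at P14 and from 23733 to 228466 at P28, and of 21 ependymal genes 1 rose and 0 fell.

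**Figure D5:**
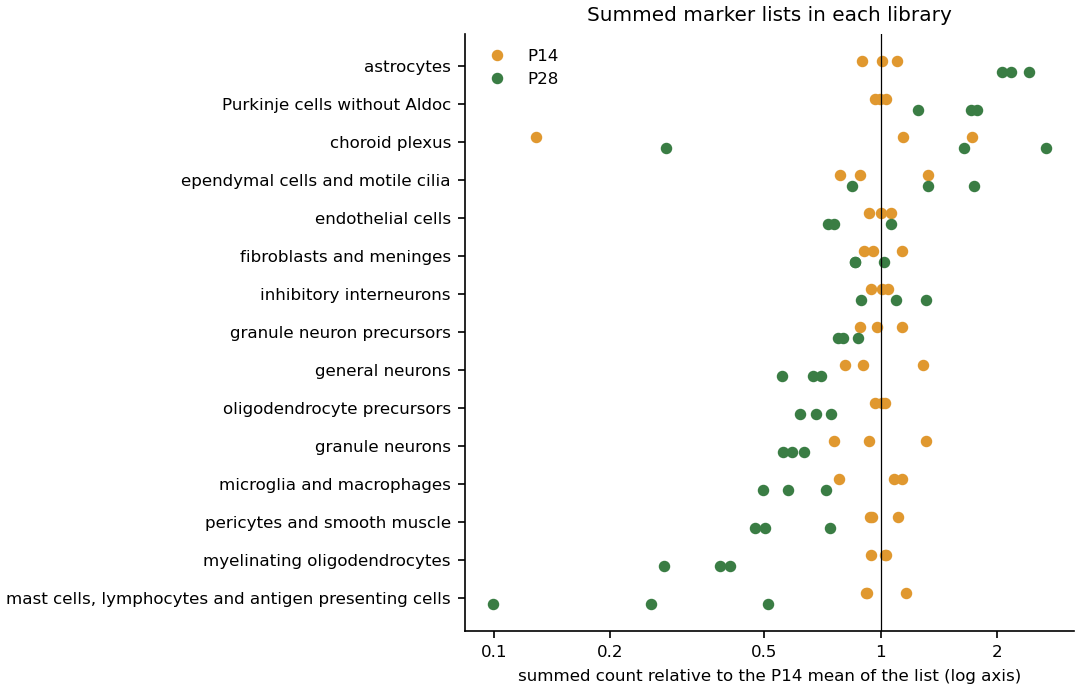
Summed normalised read counts of marker lists in each library at P14 (orange) and P28 (green), divided by the P14 mean of the list, on a log axis. Astrocyte markers lay above 2 in all P28 libraries, and Purkinje cell genes without Aldoc lay above the P14 range. Below that range at P28 lay the myelin, oligodendrocyte precursor, pericyte and microglial lists. So did those of granule neurons, granule neuron precursors and general neurons, and that of mast cells, lymphocytes and antigen presenting cells. Choroid plexus spread over a wide range at both ages with replicate 3 lowest.

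Further genes were among the 12 largest rises of well-expressed genes without overlap. Ctnna3, an alpha-catenin, was at 171, 365 and 130 at P14 and 1043, 829 and 1684 at P28 (log2 fold change 2.49 ± 0.57 SE, adjusted p = 0.0107; adjusted p = 0.0507 without P14 replicate 3), and Them4 at 199, 162 and 115 at P14 and 1125, 596 and 810 at P28 (log2 fold change 2.39 ± 0.44 SE, adjusted p = 0.00357). Syt10, a synaptotagmin, was at 122, 246 and 227 at P14 and 1225, 574 and 1168 at P28 (log2 fold change 2.30 ± 0.51 SE, adjusted p = 0.00965). Hsd11b1 was at 836, 1077 and 749 at P14 and 3399, 3476 and 3923 at P28 (log2 fold change 2.03 ± 0.26 SE, adjusted p = 0.000525), after 31.8 to 55.7 in the libraries of P1 and P7. Sulf1, which trims heparan sulfate and so alters growth factor binding, was at 745, 896 and 479 at P14 and 2787, 3475 and 2016 at P28 (log2 fold change 1.98 ± 0.30 SE, adjusted p = 0.00119), and Cd44 at 531, 405 and 302 at P14 and 1263, 1308 and 2357 at P28, highest in P28 replicate 3 (log2 fold change 1.97 ± 0.28 SE, adjusted p = 0.000762). In none of these 6 genes did the ages overlap, as the rule for naming them required.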

How the data were processed

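RNA of sorted cells (10 ng) was made into libraries with the Trio RNA-Seq kit and sequenced paired-end. Reads were aligned by the authors to mm10 with STAR 2.5.0a and counted over UCSC transcripts with GenomicAlignments, and the deposited values are a signal of normalised read counts, each read count divided by 1 DESeq2 size factor per library (DESeq2 1.30.1 in the submitters' processing notes). Strand use and the handling of shared reads are not given in the sources used here, so antisense or overlapping genes and near-identical copies are uncertain. Whole reads were recovered from the steps between values (tolerance 0.01). Here log2(value + 1) of all 12 libraries was fitted with limma 3.58.1 (R 4.3.3, trend), P28 minus P14, with Benjamini-Hochberg adjustment and calls at 0.05. edgeR 4.0.16 and DESeq2 1.42.0 on the recovered reads, other scalings, filters and left-out libraries were alternatives. In simulated data limma recovered 199 of 200 genes changed by 2 on the log2 scale, with 8 false calls among 15334 genes. The simulation changed equal numbers of genes up and down, none of the lowest levels, with an assumed spread. Other genes had the same mean at all ages, and no library was an outlier. It therefore checks the code and does not give the error rate of the real comparison. Named genes are the 12 largest rises and falls without overlap among well-expressed genes, the 2 most abundant members of each list with up to 3 largest called rises and falls, Aldh1l1, Gfap and the astrocyte markers. Gria1 and Kcnj10 were added after their values were seen. Members and lists were chosen with earlier results of these data known. Some genes on the lists are not reported here by name.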

Additional observations from a re-analysis of the deposited data

How the results depend on the processing

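Both the counts of calls and their balance depended on the setting. With library totals alone, 456 genes were higher and, among well-expressed genes, 348 were higher and 501 lower. DESeq2 gave 1388 higher, and a fit of only the 6 libraries gave 393 higher and 373 lower, and 370 and 125 among well-expressed genes. At least 10 reads in each of the 6 libraries gave 874 higher and 654 lower, and unadjusted p under 0.05 with a log2 fold change over 0.75 gave 2514 lower. A mean of 200 or of 1000 as the limit for well-expressed genes gave 487 and 142 lower. Relative to the astrocyte markers, a scale chosen after seeing the data, 33 were higher and 8016 lower, and 13 and 2702 among well-expressed genes. Leaving out one library at a time gave 449 to 1072 higher and 793 to 1735 lower, and 350 to 715 and 138 to 287 among well-expressed genes. Neither Gdf10 nor Ttr was called; Gdf10 turned to -0.01 under library totals, and Ttr ranged from -0.26 without P14 replicate 3 to 3.28 without P14 replicate 1. The causes were not tested. Over 111 genes of the text (88 with 10 reads in each of the 6 libraries), TMM scaling, edgeR, DESeq2 and a pseudocount of 0.1 changed no call, while 21 calls were lost with the 6 libraries alone. A fit with the replicate number as a replicate block gave 816 higher and 1320 lower (635 and 271 among well-expressed genes); the numbers share no stated animal or day, and deviations of same-numbered libraries correlated at 0.014, 0.019 and 0.044. Depth limits the low genes most, and the difference in detected genes was -1476 when 5 reads were required.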

Other observations

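Loss of detection was lopsided. Reads were found in all 3 P14 libraries and in no P28 library for 221 genes, and the other way for 2. With 10 or more reads in each library of one age and none at the other, 50 genes were seen at P14 alone and 1 at P28 alone. The 1 gene was Cyp2f2, a cytochrome P450, with a mean count of 88.6 at P28 (at least 27.7-fold higher against 3 reads in a library). The 50 included the mast cell protease Mcpt4 (at least 22.6-fold lower), the calcium-sensing receptor Casr (13.3-fold), the neuronal transcription factors Otx1 (10.9-fold) and Bcl11a (9.95-fold), and the iron-binding secreted protein Lcn2 (9.39-fold). All were chosen after their values were seen.

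Called non-coding genes were mostly lower at P28. Of 194 lincRNA genes tested 26 fell and 2 rose, with a median log2 fold change of -0.81, and of 238 antisense genes 32 fell and 3 rose, with a median of -1.11. Among all genes tested 8.76% fell, and among genes of any type with mean counts under 50 14.2% fell, with a median of -1.2.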
